A study of Mus musculus with 2 samples.

Results

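Transcript levels, splice forms and replicate spread of 10 synaptotagmin genes were described in the adult mouse cerebellum. The genes were Syt1, Syt2, Syt3, Syt4, Syt5, Syt6, Syt7, Syt9, Syt11 and Syt12, a fixed list matched by Ensembl gene identifier, and all 10 were found among the 43346 mouse genes of the quantification tables. RNA sequencing had been carried out on 2 libraries that form 1 group, cerebellum, from the inbred strain C57BL/6J at an age of 8 weeks. No allele, agent or treatment is named for either library. Both libraries were made from tissue pooled over males and females of mixed-sex litters and share 1 donor record. The spread between them may therefore be partly technical, and the design holds no contrast and allows no test. Values of the 2 libraries are given as replicate 1 and replicate 2.

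Synaptotagmins are membrane proteins, most of them on vesicles, with a pair of cytoplasmic C2 domains named C2A and C2B. In the members that sense calcium, loops of these domains carry aspartate residues that bind calcium ions, and binding drives the domain into the target membrane and triggers fusion with SNARE proteins. Syt1, Syt2 and Syt9 are known as fast sensors of synchronous transmitter release, Syt7 and Syt3 bind calcium with higher affinity and slower kinetics, and Syt4, Syt11 and Syt12 have C2A domains that lack part or all of the calcium site. In the cerebellum, Syt2 is known as the fast sensor of inhibitory synapses that molecular layer interneurons form.

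The coding sequences of calcium-binding loop 3 of C2A show this split between members. Each line gives 9 codons in the 5′ to 3′ direction from the protein-coding basic transcript with the highest TPM, on the mm10 assembly. Capitals mark the codons that align with 3 aspartate codons of Syt1, the first of which is codon 230. Syt4 is not shown here.
Syt1 loop 3 (chr10:108627346-108627372, - strand): GATtttGACcgcttctccaagcacGAC
Syt2 loop 3 (chr1:134744432-134744458, + strand): GACtttGACcgcttctctaagcatGAC
Syt9 loop 3 (chr7:107436702-107436728, + strand): GACtttGACaggttctctcgccatGAC
Syt7 loop 3 (chr19:10442878-10442904, + strand): GATtatGACcgtttcagccgcaatGAC
Syt3 loop 3 (chr7:44393448-44393474, + strand): GACttcGACcgcttctcgcggcatGAT
Syt5 loop 3 (chr7:4542284-4542310, - strand): GACtttGATcggttctcccgcaacGAT
Syt6 loop 3 (chr3:103587675-103587701, + strand): GACtttGACcgcttctcccgccatGAC
Syt11 loop 3 (chr3:88761819-88761845, - strand): AGCtttGATcgattctctcgggatGAC
Syt12 loop 3 (chr19:4453855-4453881, - strand): GGTatcGACgaggatgagcggaatGTG

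The first calcium-binding loop of C2A holds 2 further aspartate codons in Syt1, and it is shown for Syt1 and for Syt12, the member that differs most from it.
Syt1 loop 1 (chr10:108631889-108631921, - strand): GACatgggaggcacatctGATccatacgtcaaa
Syt12 loop 1 (chr19:4456537-4456569, - strand): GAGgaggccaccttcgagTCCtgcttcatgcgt

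Over both loops, 7 members (Syt1, Syt2, Syt3, Syt5, Syt6, Syt7 and Syt9) carry an aspartate codon, GAT or GAC, at 5 of 5 positions. Syt4 and Syt11 carry one at 4 positions, and the exception is in loop 3 in both. Syt12 carries one at 1 position.

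The tissue label was checked against marker genes. All 5 granule neuron markers and all 5 Purkinje neuron markers were at 10 TPM or more in both libraries, TPM being the deposited level, corrected for transcript length and library depth. Pcp2, a Purkinje neuron gene, was at 1584.66 TPM in replicate 1 and 1349.15 TPM in replicate 2, and Gabra6, a receptor subunit of granule neurons, was at 336.11 and 269.46 TPM. Of 5 forebrain neuron markers, 1 was at 10 TPM or more in both libraries, and this one, Camk2a, averaged 33.0 ± 0.905 TPM (SD, n = 2). Estimated fragment counts over mouse genes came to 79771873 in replicate 1 and 80281011 in replicate 2. Of the TPM summed over mouse genes, 21.2% and 24.3% was mitochondrial, and the mitochondrial genes stay in the denominator of every TPM value below. The libraries stood apart in choroid plexus genes: 5 of 5 markers, none of them at 0, were at least 25% higher in replicate 1, and their summed level was 2421 TPM in replicate 1 against 965 TPM in replicate 2.

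The 10 members spanned a 38.9-fold range of levels. Of these, 8 were at 10 TPM or more in both libraries, where 40.0% of 21474 protein-coding genes reached that level. Syt11, Syt2 and Syt1 together held 63.0% of the summed TPM of the 10 genes in replicate 1 and 66.5% in replicate 2, and Syt6 and Syt5 held 1.52% and 1.61%. By mean TPM the order was Syt11, Syt2, Syt1, Syt3, Syt7, Syt4, Syt12, Syt9, Syt6 and Syt5. In 7 of the 9 neighbouring pairs of this order the 2 libraries of the higher gene were both above those of the lower one. The ranges overlapped between Syt3 and Syt7 and between Syt7 and Syt4, so neither pair could be ordered within the replicate spread, although Syt4 was the lowest of the 3 in each library. Mean FPKM kept the order Syt3, Syt7 and Syt4, at 53.5, 52.3 and 50.4, and so did posterior mean TPM, at 81.7, 79.7 and 76.7. By TPM of basic transcripts, a measure chosen after seeing the data, and by RPKM on mm9, Syt3 fell below both. TPM of basic transcripts was 64.2 and 64.4 for Syt3, 85.4 and 75.7 for Syt7 and 82.0 and 73.0 for Syt4. Deposited RPKM on mm9 was 8.33 and 8.47 for Syt3, 12.5 and 11.9 for Syt7 and 10.4 and 10.1 for Syt4. Syt6 and Syt5 did not overlap, with a lowest value of 7.68 TPM against a highest of 7.53 TPM, but their 95% Poisson counting intervals did.

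**Figure D1:**
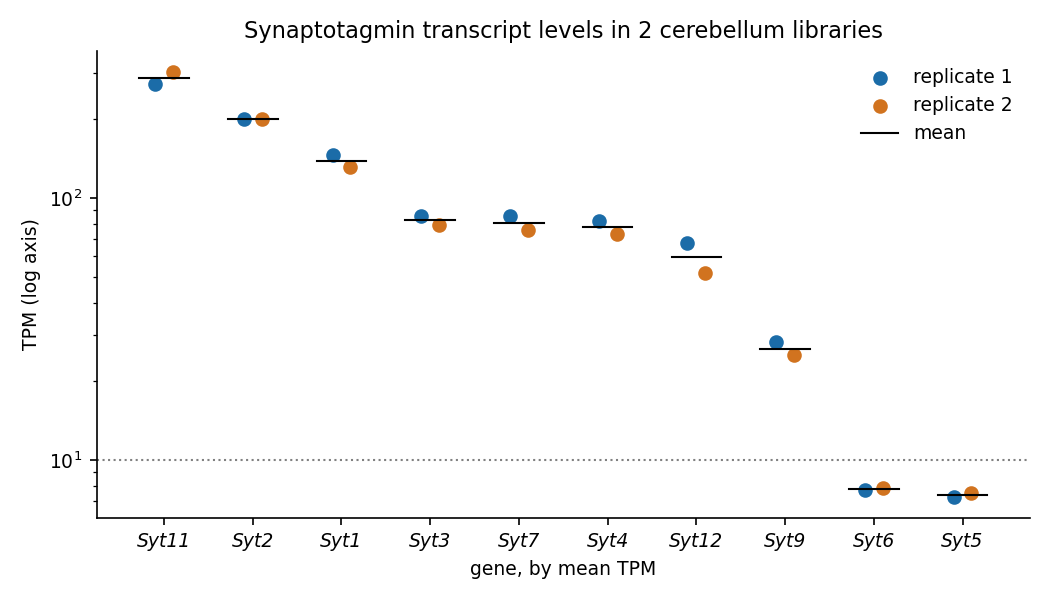
Levels of the 10 synaptotagmin genes in TPM on a log axis, ordered by their mean, with 1 point for each library and a line at the mean; the dotted line is at 10 TPM. Syt11 is highest at 272.35 and 303.35 TPM, Syt3, Syt7 and Syt4 overlap, and Syt6 and Syt5 lie below 10 TPM.

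Among the fast sensors, Syt2 was the higher of the abundant pair by the deposited level. Syt2 lies on chr1:134646677-134762593, + strand of mm10, and was at 200.02 TPM in replicate 1 and 201.42 TPM in replicate 2. Its mean of 201 ± 0.99 TPM (SD, n = 2) placed it 537th among protein-coding genes. Syt1, the best-studied calcium sensor of the family, lies on chr10:108497650-109010982, - strand, and was at 146.68 and 132.08 TPM, a mean of 139 ± 10.3 TPM (SD, n = 2). The mean of Syt2 was 1.44 times that of Syt1, and the libraries of the 2 genes did not overlap. Syt9 on chr7:107370728-107548656, + strand, was lower, at 28.28 and 25.13 TPM. Its mean of 26.7 ± 2.23 TPM (SD, n = 2) lay 3.44 times above that of Syt6, the next gene down.

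In gene TPM, the lead of Syt2 over Syt1 rested on 1 short transcript model. Other measures of level, given below, were divided on which of the 2 genes was higher. Syt2-203, an annotated fragment of 383 nucleotides, took 43.47% of the gene's TPM in replicate 1 and 40.85% in replicate 2, but only 2.22% and 1.93% of its estimated counts. The full-length Syt2-201, of 6879 nucleotides, took 53.35% and 56.51% of TPM and 97.3% and 97.7% of counts. Summed over transcripts of the GENCODE basic set, which leaves out most fragments, Syt2 came to 107 and 114 TPM and Syt1 to 126 and 112 TPM. On that scale the means were 111 TPM for Syt2 and 119 TPM for Syt1, and the libraries of the 2 genes overlapped.

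The short model differs from Syt2-201 by its first exon, which lies far upstream. Splice junction reads, deposited on mm9 for replicates 1 and 2 of the series without a library name, show how the 2 first exons were used. Of 2287 reads that ended at the acceptor of exon 2, 1614 came from the upstream first exon, over an intron of 93999 bases that Ensembl 65 does not list and that equals the intron of Syt2-203 in length. Another 662 came from the first exon of Syt2-201, over an intron of 31410 bases. The upstream share was 65.6% in replicate 1 and 76.8% in replicate 2, and 70.6% over both (95% Wilson interval 68.7% to 72.4%). The replicates lay 11.2 percentage points apart, each outside the interval of the pooled share, and in both the upstream exon was the more used. Both models are annotated as protein-coding, and no comparison of their start codons is given here.

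The 250 bases before each of the 2 Syt2 starts are given from RefSeq (GRCm38.p6), with CpG dinucleotides in capitals, because the junction reads bear on which start was used.
Syt2 upstream start (chr1:134646362-134646611, + strand): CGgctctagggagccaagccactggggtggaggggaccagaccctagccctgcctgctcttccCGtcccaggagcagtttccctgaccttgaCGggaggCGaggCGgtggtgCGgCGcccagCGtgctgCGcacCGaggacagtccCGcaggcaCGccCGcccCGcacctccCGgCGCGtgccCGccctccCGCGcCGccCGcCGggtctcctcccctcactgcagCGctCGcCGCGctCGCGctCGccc
Syt2 downstream start (chr1:134709050-134709299, + strand): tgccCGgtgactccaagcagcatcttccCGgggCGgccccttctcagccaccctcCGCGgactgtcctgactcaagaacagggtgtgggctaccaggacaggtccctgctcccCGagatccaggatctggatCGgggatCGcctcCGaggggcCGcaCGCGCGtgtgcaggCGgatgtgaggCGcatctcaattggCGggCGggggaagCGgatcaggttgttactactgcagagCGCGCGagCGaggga

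The upstream window holds 30 CpG dinucleotides and is 76.0% G or C, and the downstream window holds 22 and is 66.4% G or C. Both are above the medians of 6 CpG and 52.4% over 32851 RefSeq windows of the same length, of which 5.94% hold 30 or more CpG and 14.8% hold 22 or more. Neither window holds TATAAA on either strand, which 12.4% of windows do. CCGCCC occurs 3 times in the upstream and 2 times in the downstream window, counting both strands, and in 32.7% of all windows. CCAAT occurs in the downstream window alone, 1 time, and in 33.8% of all windows.

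In Syt1, the leading form in the junction reads was not the leading form in the transcript table. The gene has a coding exon, between the membrane-spanning part and C2A, with 2 acceptor sites 9 bases apart. The exons differ by the 9 bases in capitals, a whole number of codons.
Syt1 long exon (chr10:108636551-108636673, - strand): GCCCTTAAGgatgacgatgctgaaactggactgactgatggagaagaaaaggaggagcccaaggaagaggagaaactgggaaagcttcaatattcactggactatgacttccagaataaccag
Syt1 short exon (chr10:108636551-108636664, - strand): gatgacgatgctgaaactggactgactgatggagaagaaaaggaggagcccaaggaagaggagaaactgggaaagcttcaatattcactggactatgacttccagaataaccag

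Of 2041 reads from the preceding donor, 1314 joined the short exon and 727 the long one. The short form took 62.5% of reads in replicate 1 and 66.1% in replicate 2, which is 64.4% over both (95% Wilson interval 62.3% to 66.4%). In the transcript table, Syt1-201 and Syt1-202 carry the long exon, and Syt1-206, a processed transcript of 1113 nucleotides, is the model with the short one. Syt1-206 was given 13.0% and 14.52% of the gene's TPM and 2.95% and 3.31% of its counts. Syt1-201 was given 80.51% and 77.26% of TPM. No full-length model with the short exon was among the 6 Syt1 transcripts quantified.

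The first exons of Syt1 were used unequally. Of 1530 reads into the acceptor that the 5′ exons share, 1384 came straight from the first exon of Syt1-201, which is 91.0% in replicate 1 and 89.8% in replicate 2. A further 104 came from the 80-base second exon of Syt1-202, and 22 came from the downstream first exon that Syt1-206 carries.

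Syt9 had 1 leading form by TPM. Syt9-201 took 73.92% of TPM in replicate 1 and 68.61% in replicate 2, and Syt9-202, a retained-intron model, 13.5% and 13.07%. The 2 forms also differ by 5 bases at an acceptor, and 515 of 593 junction reads used the longer exon of Syt9-201, 87.4% in replicate 1 and 86.1% in replicate 2. Exon 2 of Syt9 was skipped in 20 of 288 reads that left exon 1. The model with that skip, Syt9-204, of 482 nucleotides, led by RPKM on mm9. Its 62-base last exon was at 6.12 and 9.29 RPKM, where the whole gene was at 8.43 and 11.1. The 547-base exon of Syt9-201 was at 1.96 and 1.24 RPKM. Place 6 of Syt9 by RPKM on mm9 thus rested mostly on a short model with few junction reads.

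**Figure D2:**
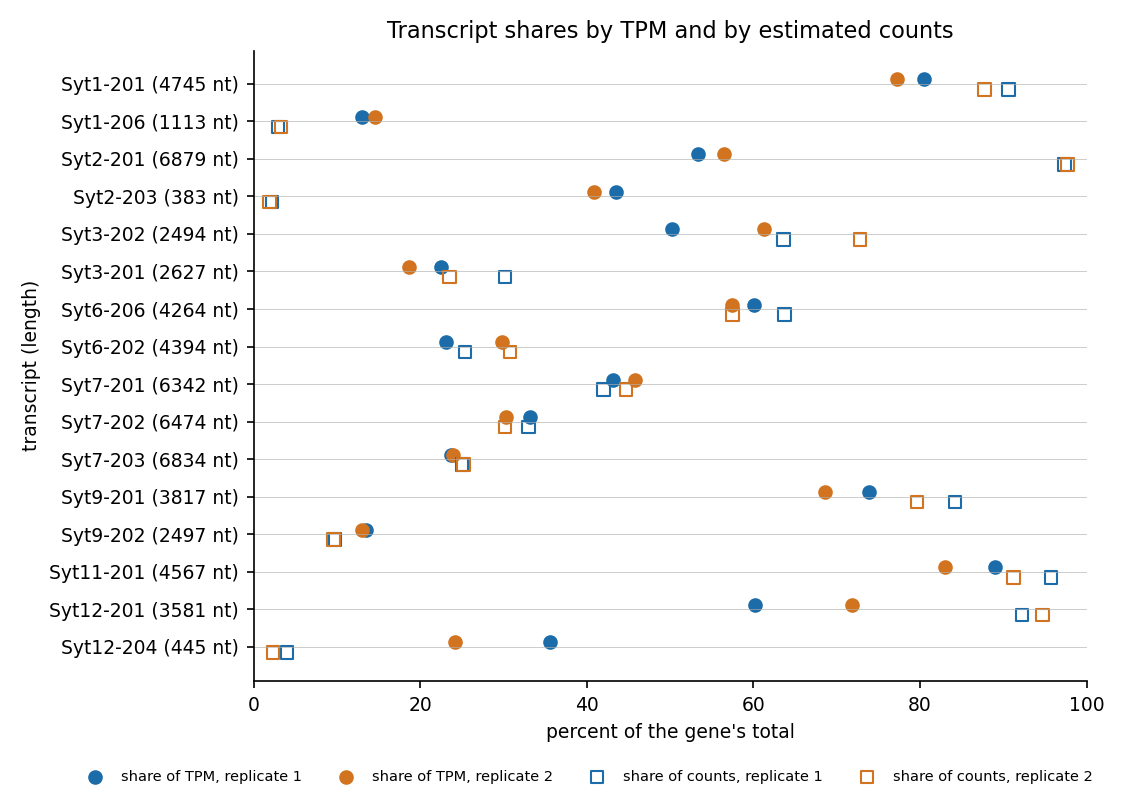
Share of each gene's TPM (filled circles) and of its estimated counts (open squares) held by every transcript at 10% of TPM or more in both libraries, for genes with more than 1 transcript; lengths are in nucleotides. The short models Syt2-203, Syt12-204 and Syt1-206 hold large shares of TPM and under 5% of counts, while the 3 Syt7 models hold like shares on both scales.

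The slower, high-affinity sensors Syt7 and Syt3 overlapped by gene TPM, but Syt7 was above Syt3 in both replicates by TPM of basic transcripts and by RPKM on mm9. Syt7, known for asynchronous release and facilitation, lies on chr19:10389090-10453180, + strand, and was at 85.43 TPM in replicate 1 and 75.66 TPM in replicate 2. Syt3, which is known to act in both transmitter release and internalisation of AMPA receptors, lies on chr7:44384102-44400187, + strand, and was at 85.23 and 79.38 TPM. Their means were 80.5 ± 6.91 TPM for Syt7 and 82.3 ± 4.14 TPM for Syt3 (SD, n = 2 each), and their ranges overlapped. Basic transcripts held 100% of the TPM of Syt7 in both libraries, but 75.3% and 81.1% of that of Syt3.

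Syt7 had the most splice choice of the 10 genes: 5 of its splice sites joined a second partner at 10% of reads or more. The gene has spacer exons between the membrane-spanning part and C2A. Of its transcripts, 3 passed 10% of TPM, Syt7-201 at 43.11% and 45.82%, Syt7-202 at 33.13% and 30.3% and Syt7-203 at 23.75% and 23.88%. These models are 6342, 6474 and 6834 nucleotides long as quantified, lengths that differ from those of the same identifiers in GENCODE M21, so M21 exons do not describe them. Their shares of counts were close to their shares of TPM. The first spacer exon, in frame and coding over its whole 132 bases, was the partner most used.
Syt7 spacer exon (chr19:10421757-10421888, + strand): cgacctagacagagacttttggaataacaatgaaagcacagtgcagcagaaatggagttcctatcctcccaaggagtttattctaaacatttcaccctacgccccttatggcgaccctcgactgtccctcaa

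Of 1227 reads that left the exon before the spacers, 644 joined this 132-base exon, 53.7% in replicate 1 and 51.0% in replicate 2. Another 526 skipped all spacer exons, 41.8% and 44.1%. Only 13 joined the 369-base spacer exon directly, 1.06% over both replicates (95% Wilson interval 0.62% to 1.80%), although 2 Ensembl 65 models are built on that junction. Of these, 1 carries the identifier of Syt7-203, which was given 23.75% of TPM in replicate 1 and 23.88% in replicate 2. So large a share is not borne out by that junction, if the model was quantified with its Ensembl 65 exons. Of the 589 reads that left the 132-base exon, 201 skipped to the first exon after the spacers, and 137, 130 and 121 joined 3 spacer acceptors over introns that Ensembl 65 does not list. All 3 introns equal in length an intron of a Syt7 transcript in GENCODE M21. At the acceptor of the 369-base exon, 334 of 484 reads came from the donor of the spacer before it and 137 from the 132-base exon. That donor ends the 228-base spacer exon that GENCODE M21 gives Syt7-203 and a longer form that starts at another acceptor.

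In Syt3, the junctions from exon 2 divided over 6 acceptor sites ahead of the start codon. The acceptor of Syt3-202 took 400 of 659 reads, 55.5% in replicate 1 and 66.1% in replicate 2, and that of Syt3-201 took 147, 27.3% and 17.1%. The transcript table gave Syt3-202 50.22% and 61.25% of TPM and Syt3-201 22.55% and 18.64%. Both measures put Syt3-202 first in both replicates.

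Syt5 and Syt6 were the lowest members. Syt5, which has been linked to dense-core vesicles, lies on chr7:4539765-4547541, - strand, and was at 7.27 TPM in replicate 1 (95% Poisson interval 6.70 to 7.88 TPM) and 7.53 TPM in replicate 2 (6.96 to 8.13 TPM). Syt5-201 is its only quantified transcript, and 7 of its 7 introns had 10 junction reads or more, with 53 to 180 reads each. Syt6, known from the acrosome reaction of sperm, lies on chr3:103575231-103645569, + strand, and was at 7.68 TPM (7.30 to 8.07 TPM) and 7.84 TPM (7.48 to 8.21 TPM). The means were 7.76 ± 0.113 TPM for Syt6 and 7.40 ± 0.184 TPM for Syt5 (SD, n = 2 each).

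Syt6 was the member in which a model annotated as a target of nonsense-mediated decay led. Syt6-206 took 60.06% of TPM in replicate 1 and 57.41% in replicate 2, and the protein-coding Syt6-202 took 23.15% and 29.83%. Summed over basic transcripts, Syt6 came to 2.89 and 3.30 TPM, which put it below Syt5. Syt6-206 skips a 68-base exon that in Syt6-202 holds the last 18 coding bases. Of 90 reads that left the donor before it, 62 skipped the exon and 28 joined it, so that skipping took 71.1% in replicate 1 and 66.7% in replicate 2 (68.9% over both, 95% Wilson interval 58.7% to 77.5%). At the acceptor after the exon, the same 62 reads were set against 45 that came from the exon and 12 from another donor. There skipping took 58.2% in replicate 1 and 46.9% in replicate 2, or 52.1% over both (95% Wilson interval 43.2% to 60.9%). Ensembl 65 gives the skipping intron to another model besides Syt6-206. The reads therefore show the skip but not use of the decay-target model.

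**Figure D3:**
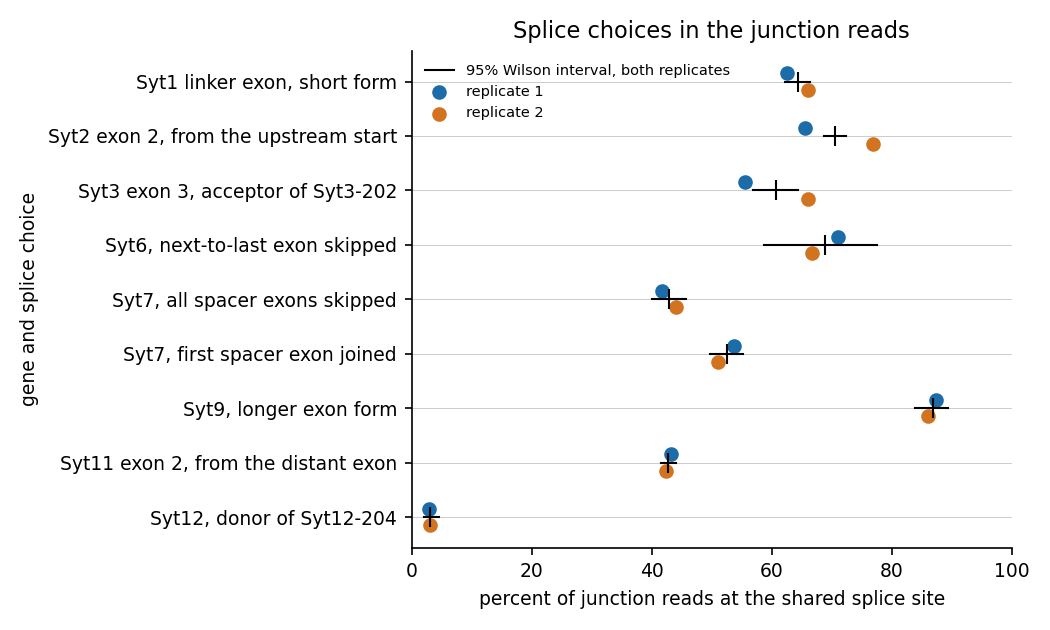
Percent of junction reads at a shared splice site that used the named choice, for replicates 1 and 2 (points) and for both with its 95% Wilson interval (black). The short Syt1 exon lies at 62.5% and 66.1%, the upstream Syt2 start at 65.6% and 76.8%, and the donor of Syt12-204 at 2.97% and 3.14%.

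Of the members with an incomplete calcium site in C2A, Syt11 was the highest synaptotagmin of all. Syt11, known to restrain endocytosis and phagocytosis, lies on chr3:88744700-88775164, - strand, and was at 272.35 TPM in replicate 1 and 303.35 TPM in replicate 2. Its mean of 288 ± 21.9 TPM (SD, n = 2), 354th among protein-coding genes, was 1.43 times that of Syt2. Syt4, the closest relative of Syt11 in the family, lies on chr18:31437808-31447406, - strand, and was at 81.95 and 73.02 TPM, a mean of 77.5 ± 6.31 TPM (SD, n = 2). Syt12, which is known to be phosphorylated by protein kinase A, lies on chr19:4445908-4477447, - strand, and was at 67.69 and 52.00 TPM. Its mean of 59.8 ± 11.1 TPM had the widest SD relative to its mean among the 10.

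Among the quantified transcripts Syt4 had 1 form and Syt11 had 1 leading form, but the junction reads of Syt11 were divided at its 5′ end. Syt4-201 is the only quantified Syt4 transcript, and 3 of 3 introns had 1152 to 1719 junction reads. In Syt11, Syt11-201 took 89.01% of TPM in replicate 1 and 82.93% in replicate 2. Both genes also had junctions to a site 3 bases away, though in different introns. In Syt4 it was an acceptor of the 1737-base intron, with 31 of 1750 reads. In Syt11 it was a donor of the 768-base intron, with 432 of 6079 reads. An acceptor 3 bases away at the 12823-base intron of Syt11 had 17 of 4017 reads. The 5′ end of Syt11 was divided: of 6255 reads into exon 2, 3577 came from the first exon of Syt11-201 and 2678 from a 34-base exon across an intron of 69714 bases that 1 Ensembl 65 model gives to the gene. The share of the distant exon was 43.2% in replicate 1 and 42.4% in replicate 2. No Syt11 transcript of GENCODE M21 has an intron of that length, so the TPM values above hold no model of this form. Of all 3534 reads that left the 34-base exon, 75.8% joined Syt11 and the others joined 4 sites between.

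The Syt12 level rested in part on a short model. Syt12-204, of 445 nucleotides, was given 24.09 TPM in replicate 1 and 12.60 TPM in replicate 2, which is 35.59% and 24.23% of the gene, from 4.01% and 2.31% of its counts. Syt12-201, the full-length form, was at 40.70 and 37.35 TPM. A donor site that Syt12-204 alone uses took 23 of 754 junction reads, 2.97% in replicate 1 and 3.14% in replicate 2 (3.05% over both, 95% Wilson interval 2.04% to 4.54%). The fold between replicates of Syt12 was 1.30 by gene TPM and 1.07 by scaled counts.

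Across the 10 members, 4 of the 8 with more than 1 transcript had a second transcript at 20% of TPM or more in both libraries, namely Syt2, Syt6, Syt7 and Syt12. Among all 8102 genes with 2 or more transcripts and 5 TPM in both libraries, 39.0% did, so the share of the members was near that of all genes. By share of counts 3 members passed, namely Syt3, Syt6 and Syt7. Of the 98 introns that Ensembl 65 gives the members, 87 (88.8%) had 10 junction reads or more, where 61.3% of 243332 introns of all genes did, expressed or not. The reads also showed 25 junctions at member exons that are no Ensembl 65 intron of the gene, among 112 with 10 reads or more. The like share over all genes was not computed, so this count cannot be called high or low.

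The replicate ratios of the members were set beside those of all genes. After scaling of the counts, 0 of 10 members were 25% or more apart, where 10.6% of 15543 genes were. That share includes genes with as few as 100 counts, while the lowest member, Syt5, had 597 and 652. With 10 members, a count of 0 does not show them to be closer than other genes. By TPM plus 1, Syt12 was the 1 member that far apart, against 6.22% of genes, and no test was possible with 1 library on each side. The log2 ratio of replicate 1 over replicate 2 ran from -0.19 for Syt11 to 0.13 for Syt9, with 5 members higher in each replicate. Their log2 ratios had a median size of 0.11, against 0.09 for all genes tested. Syt11, Syt6, Syt2, Syt5 and Syt3 were higher in replicate 2, and Syt12, Syt1, Syt4, Syt7 and Syt9 in replicate 1. By TPM, Syt11, Syt6, Syt2 and Syt5 were higher in replicate 2 as well. Syt3 was higher in replicate 1 by TPM, at 85.23 against 79.38, so its direction turned with the measure. Oligodendrocyte markers summed to 3170 TPM in replicate 1 and 3743 TPM in replicate 2, and granule neuron markers to 1919 and 1535 TPM. The part of these cell types, and of the choroid plexus genes, in the ratios of the members was not tested. In bulk tissue, fewer cells of a type cannot be told apart from less RNA per cell.

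**Figure D4:**
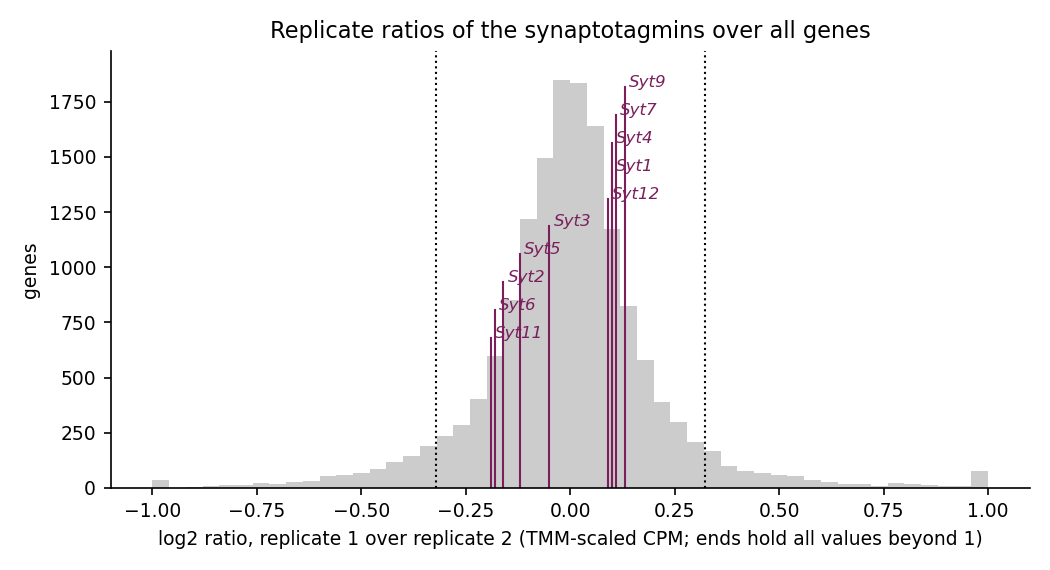
Log2 ratio of replicate 1 over replicate 2 for 15543 genes (grey histogram, end bars hold all values beyond the axis) with the 10 synaptotagmins as labelled lines; line height has no meaning. All 10 lie between -0.19 and 0.13, inside the dotted lines at a difference of 25%.

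The 2 ends of the order held across measures. Syt11 was first, and Syt5 and Syt6 held the last 2 places, under all 6 measures set side by side. Between them the order moved. By deposited RPKM on mm9, a length-corrected unit, Syt1 was at 16.6 and 15.7 and Syt2 at 13.8 and 16.0, so that Syt1 was second by its mean. The ranges of the 2 genes overlapped, and Syt2 was the higher in replicate 2. By the median number of reads over the junctions of the model with most introns, Syt2 was second with 792 and 815 reads. On this measure, which needs no transcript length, Syt1 was sixth with 632 and 566 reads. For Syt1 the model was Syt1-202, which held 5.27% of the gene's TPM in replicate 1 and 7.3% in replicate 2. Its second exon had junctions with only 104 and 93 reads over both replicates. Syt1 was not ranked over the junctions of Syt1-201, the leading form by TPM, so place 6 holds for Syt1-202 only. Places 4 to 6 lay close, at means of 602 for Syt12, 600 for Syt7 and 599 for Syt1. Syt4 took place 3 on that measure with 802 and 551 reads.

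**Figure D5:**
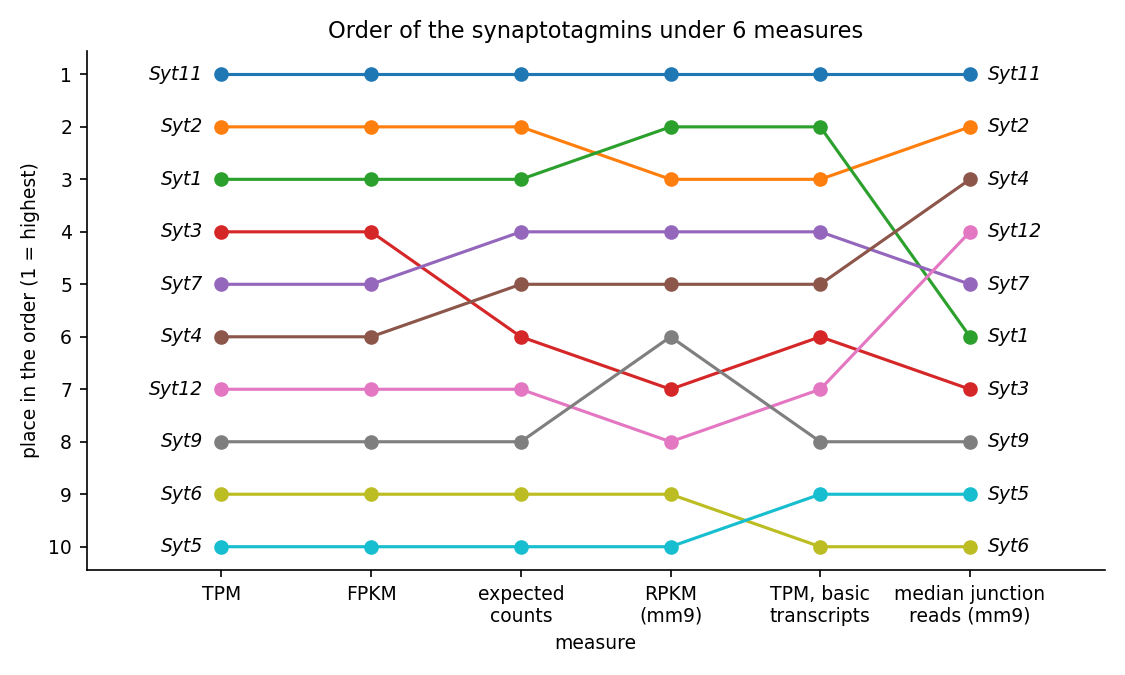
Place of each synaptotagmin, with 1 as the highest, under 6 measures of its level. Syt11 stays at place 1 and Syt6 and Syt5 share places 9 and 10. Syt1 lies between places 2 and 6 and Syt3 between 4 and 7. Place 6 of Syt1 is by junction reads of Syt1-202, a minor form by TPM.

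The other synaptotagmin genes of the mouse list were lower, apart from Syt13. Of 7 such genes, 1 was at 10 TPM or more in both libraries. Syt13, an atypical member, was at 75.57 TPM in replicate 1 and 69.41 TPM in replicate 2, and its range overlapped that of Syt4. Syt17, Syt14 and Syt16 averaged 4.68, 4.24 and 3.60 TPM, and Syt8 had no counts in either library, where a count of 0 allows up to 3 counts in each.

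Proteins of release with related C2 domains and the fusion machinery were also measured. Of 11 related C2 proteins, 4 were at 10 TPM or more in both libraries. Rph3a, a Rab3 effector on vesicles, was at 187.78 TPM in replicate 1 and 174.98 TPM in replicate 2, between Syt2 and Syt1. Doc2b, a calcium sensor of spontaneous release, averaged 22.2 ± 2.64 TPM, Esyt1 20.9 ± 0.127 TPM and Sytl2 15.9 ± 0.926 TPM, and Sytl3 was lowest at 0.23 ± 0.0707 TPM (SD, n = 2 each). The 10 synaptotagmins had a median of 79.0 TPM, against 203 TPM for 24 matched genes of the release machinery and 4.77 TPM for all protein-coding genes. Of the 24, 21 were at 10 TPM or more in both libraries. Snap25, the SNARE protein of the plasma membrane, averaged 1883 ± 36.4 TPM, Rab3a 752 ± 27.1 TPM and Syp 612 ± 19.1 TPM, and Cplx3 was lowest at 0.55 ± 0.0707 TPM (SD, n = 2 each).

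Of the 10 genes, 7 overlap another annotated gene, and Syt5, Syt9 and Syt11 overlap none. The highest of the overlapping genes in the tables, Ppp1r12b on the strand opposite Syt2, was at 15.62 TPM in replicate 1 and 14.07 TPM in replicate 2. The libraries keep strand, but whether counting used it is not given in the sources used here.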

How the data were processed

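Per the labels, RNA longer than 200 nucleotides, polyadenylated and depleted of ribosomal RNA, was sequenced strand-specifically in paired reads of 101 bases. Per the file headers, the authors deposited expected counts, TPM, FPKM and the percent of gene TPM per transcript on mm10 with GENCODE M4, and, on mm9, RPKM with Ensembl 65 and junction read counts with an irreproducibility fraction. The programs that made them are not given. TPM denominators include spike-ins. An mm9 exon value equals the sum over its transcripts, so it is no separate measure. It was used only for Syt9, to give the value of single models. The members, gene lists and tests were chosen with earlier results of these data known. All 10 members are named, with the 4 highest and the lowest gene of the other family and release lists and transcripts at 10% of TPM in both libraries. Of the cell type marker lists, which give their counts and sums, Pcp2, Gabra6 and Camk2a are named as examples chosen after their values were seen. An item of these lists is not reported here but stays in the counts. No genes of like pattern are named, since 2 libraries give no pattern.

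Expected counts were rounded, and replicate ratios came from edgeR 4.0.16 in R 4.3.3 (TMM scaling, log2 CPM, prior count 2, genes with 100 counts), tested on simulated counts. Transcript names and classes came from GENCODE M21, where 39 of 44 member transcripts had the same length. The 3 Syt7 transcripts did not, so their M21 exons are not those quantified. Introns were matched between mm9 and mm10 by length only. A junction needed 10 reads. Splice sites shared by 2 junctions were compared as read shares with Wilson intervals, and levels have exact Poisson intervals on rounded counts. Both cover counting error only. Proteins were not compared. Codons were instead aligned to Syt1 through their translation.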

Additional observations from a re-analysis of the deposited data

How the results depend on the processing

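The number of members at 10 TPM or more was 8, and it was 8 to 10 under the other settings, 9 where TPM was taken over nuclear genes and 10 at 5 TPM. Without either library it was 8 and 8. The order kept 10 of 10 members in place by FPKM and by posterior mean TPM, 7 by expected counts, 3 by RPKM on mm9, 3 by TPM of basic transcripts and 4 by median junction reads, and 8 to 10 without either library; the last 2 measures were chosen after seeing the data. Pairs of neighbours without overlap numbered 7, with 9 by expected counts, 6 by FPKM, 6 by RPKM on mm9 and 4 by median junction reads; a single library gives no range. The count of members 25% apart was 0, and 1 by TPM plus 1 and by TPM plus 0.1, which is Syt12; the median log2 ratio of all genes was 0.058 and 0.065 there. A second transcript passed in 4 members, in 7 at 10%, in 2 at 30%, and in 4 to 5 without either library. Member introns with reads numbered 87, with 92 at 1 read and 68 at 100. The cause of these shifts was not tested, beyond what each setting changes by construction. TPM over nuclear genes raised all 10 levels, by 1.34 and 1.40 times, and basic transcripts moved 7 levels by more than 1 SD. No paired analysis was possible because there is 1 group. Depth limits Syt6, whose splice shares rest on 33 to 119 reads.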
